A study of Mus musculus with 39 samples.

Results

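The genes described here encode translation initiation factors, and they were read across 39 lymphomas of Eµ-myc mice. A gene was a member if its symbol began with Eif followed by a digit from 1 to 6. Eif2s3x and Eif2s3y, the X-linked and Y-linked copies of an eIF2 subunit, were left out, as were pseudogenes. The rule used names and no measured value, and it gave 45 members among 18194 genes analysed. Each gene was read from the probe set with the highest mean among those that name it alone. Eif1, Eif2s1, Eif3g, Eif3j, Eif3j1, Eif3j2, Eif4e1b, Eif4ebp3 and Eif4g1 were not analysed here, so the alpha subunit of eIF2 and the main eIF4G scaffold are missing from what follows.

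All tumours carried the Eµ-myc transgene, in which the immunoglobulin heavy chain enhancer drives Myc in B lineage cells. Each tumour was measured on 1 array from pieces of frozen lymphoma tissue, and whatever non-tumour cells the tissue held were in the RNA. The labels name 1 group and give no control tissue, treatment, strain, age or batch, so members were compared along measures that varied from tumour to tumour. They leave unsaid whether any mouse gave several tumours, and p-values then cover only the spread between these samples. Tumours are called by the numbers in their labels, and levels are log2 values.

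Initiation is the step at which a ribosome is loaded onto a messenger RNA. eIF2 brings the initiator tRNA, eIF1 and eIF1A hold the small subunit open for scanning, eIF3 links the subunit to the message, and eIF4E binds the cap and recruits the eIF4G scaffold with the helicase eIF4A. eIF2B recharges eIF2 with GTP, 4 kinases block that recharging by phosphorylating eIF2 alpha, and the 4E-binding proteins keep eIF4E from eIF4G until mTORC1 phosphorylates them. Myc is known to raise the output of the protein synthesis machinery, Eif4e is one of its classical target genes, and excess eIF4E hastens lymphoma in Eµ-myc mice.

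Several arrays stood apart, and they bear on most results below. The array medians lay between 5.61 and 5.78, and the mean correlation of an array with the others was lowest in tumour 6 (0.912), tumour 8 (0.916) and tumour 2 (0.918). Myc averaged 11.73 ± 0.77 (log2, SD, n = 39), with a median of 11.92, but only 8.19 in tumour 2, where the tumour above it (tumour 8) had 10.58. The probe set does not tell transgene from endogenous Myc. Tumour 2 also had the highest T cell score of the series (2.67, mean centred level of 9 of 11 marker genes) and the highest mature B cell score (2.92, 10 of 12 genes), and the lowest G2/M proliferation score (-2.49). The macrophage score (12 of 12 genes) ran from -1.12 to 2.19 and was above 1.4 in tumours 2 (1.45), 6 (2.19), 8 (1.64) and 23 (2.08). The pan B cell score (9 of 10 genes) had a low cluster made of tumours 5, 6, 8, 19, 23 and 26, down to -2.87, although the model is known for B lineage tumours. Each fit is therefore also given for 36 tumours, without tumours 2, 6 and 8, and for 32 tumours, without 2, 5, 6, 8, 19, 23 and 26. RNA quality, read from the gap between the 3' and 5' control probe sets of actin and Gapdh, was ordinary in tumour 2 (0.10, range -0.00078 to 0.395). In such tissue, fewer cells of a type and less RNA per cell cannot be told apart.

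By the median, members varied slightly less from tumour to tumour than genes in general. Their median SD over the 39 tumours was 0.28, against 0.32 over all genes, and without the 7 tumours it was 0.23 against 0.27. Of the 45, 18 had an SD above the median of all genes. The levels of 43 members lay above the median level, and the SD of other genes of like level was not taken. The members with the smallest SD were Eif3e, an eIF3 subunit (0.15), Eif4a3, a helicase of the exon junction complex (0.16), and Eif2s2, the beta subunit of eIF2 (0.17). The Eif4a3 probe set averaged only 4.73 and was dim. Eif3e ran from 12.90 to 13.60 with a median of 13.24, and Eif2s2 from 12.25 to 13.09 with a median of 12.82.

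A pair of members had an SD of at least 1, as did 7.33% of all genes. Eif5a2, the paralogue of the hypusinated factor Eif5a, had the largest (SD 1.20), with levels between 4.35 (tumour 15) and 9.64 (tumour 27) and a median of 5.96. Eif4e3, an atypical cap-binding homologue of eIF4E, followed (SD 1.19), with levels between 5.74 (tumour 34) and 10.13 (tumour 19) and a median of 7.73. Both spreads were continuous, with no separate cluster of tumours, and both genes have a second probe set that correlated with the first by 0.934 and 0.981. Next came Eif1ad, named for its eIF1A domain (SD 0.50), from 8.88 in tumour 2 to 11.27 in tumour 12 with a median of 10.18. Eif3b, the scaffold subunit of eIF3 (SD 0.45), ran from 9.89 in tumour 2 to 12.47 in tumour 21 with a median of 11.65. Eif2b1, the alpha subunit of eIF2B (SD 0.44), ran from 8.33 in tumour 2 to 10.77 in tumour 17 with a median of 10.15. Eif2ak2, the double-stranded RNA kinase PKR (SD 0.44), ran from 7.10 in tumour 39 to 9.25 in tumour 2 with a median of 8.07. Tumour 2 thus held the lowest level of 3 of these 4 genes and the highest of the fourth.

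**Figure D1:**
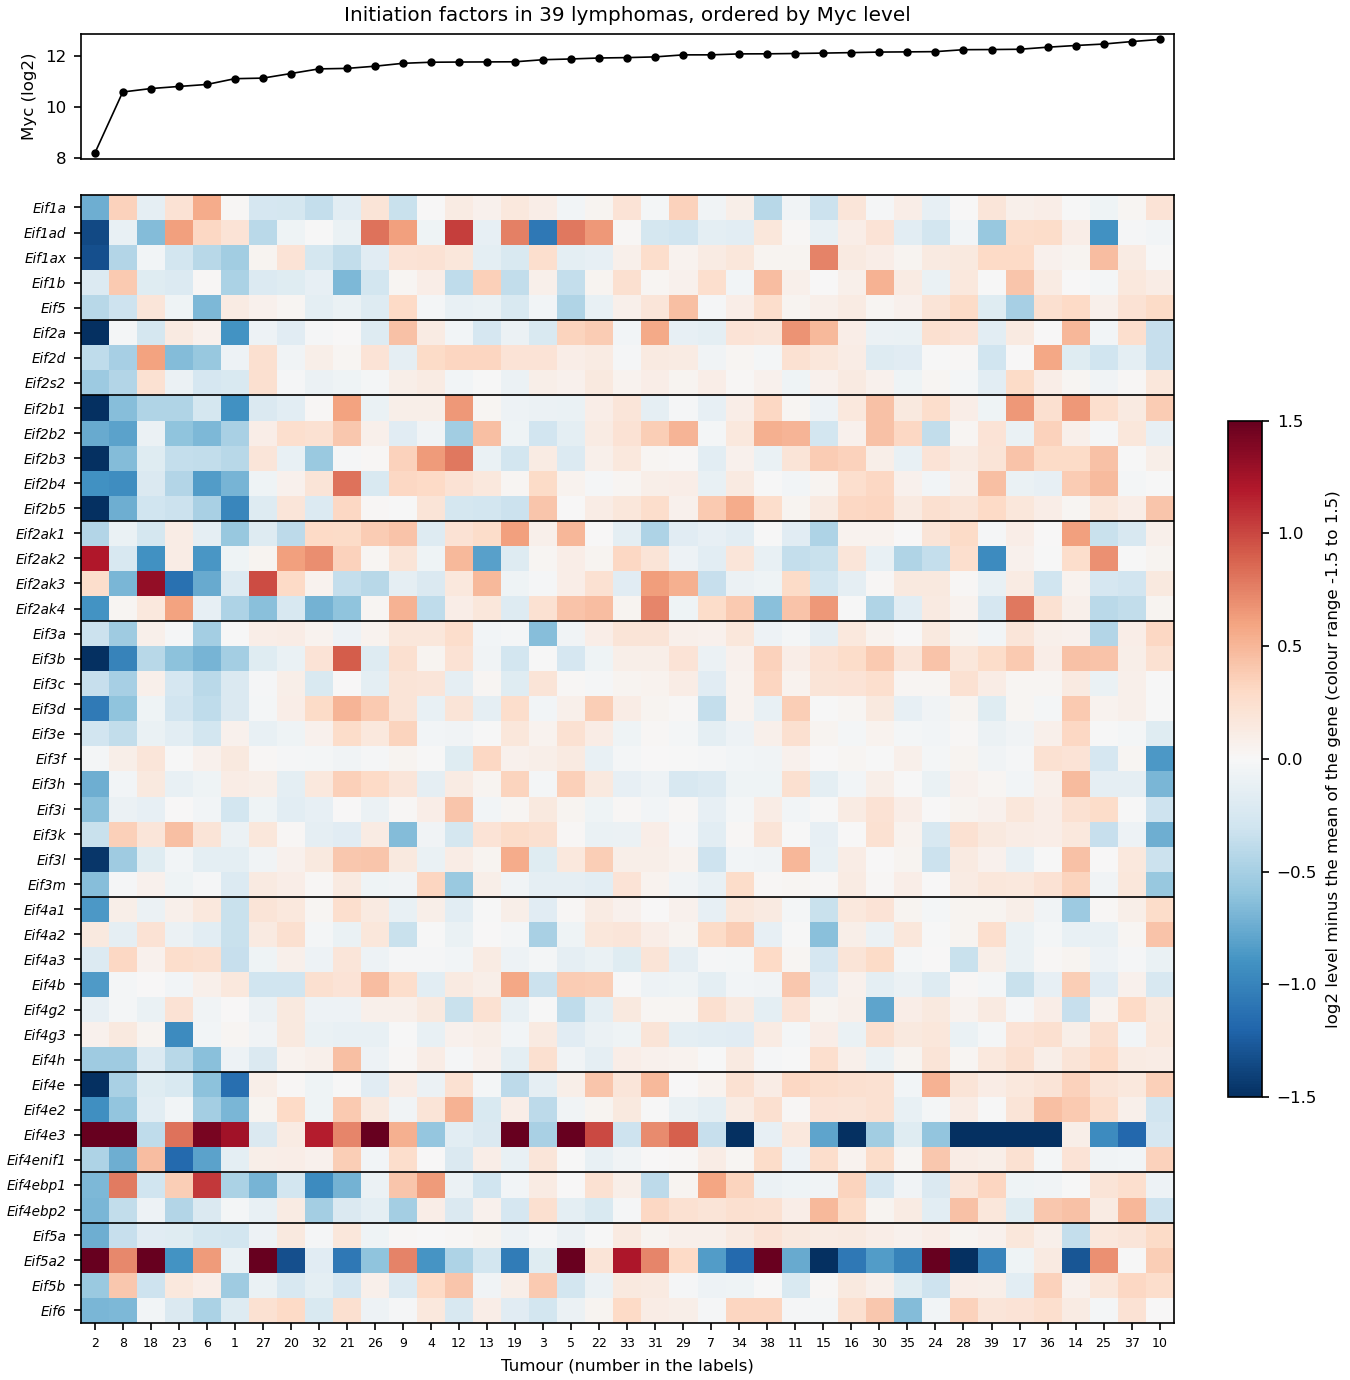
Levels of the 45 members (rows, grouped by role and separated by lines) in the 39 tumours (columns, ordered by the Myc level plotted above in log2), as the log2 level minus the mean of the gene; colours saturate at -1.5 and 1.5. Tumour 2 on the far left is pale to dark blue in most rows and held the lowest level of 23 of the 45 members, while Eif4e3 and Eif5a2 change from tumour to tumour far more than the others. Lowest levels were not counted over all genes.

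Tumour 2 was the lowest tumour for 23 of the 45 members and the highest for 1, Eif2ak2. The next most frequent lowest tumours, 8 and 23, were lowest for 4 each. By a fixed rule (over 4 robust SD and over 1 log2 unit from the median of the gene), 12 members had a tumour far from the rest. Tumour 2 was that tumour for Eif1ax, Eif2a, Eif2ak2, Eif2b1, Eif2b3, Eif2b5, Eif3b, Eif3d, Eif3l and Eif4e. Tumour 1 was also far low for Eif2b5 and Eif4e, and tumour 8 for Eif3b. The ER stress kinase Eif2ak3 (PERK) was far high in tumour 18, at 10.85 against a median of 9.51, and Eif4enif1, the nuclear transporter of eIF4E, was far low in tumour 23, at 9.05 against a median of 10.25. Neither the lowest tumours nor the far tumours were counted over all genes, so these counts are not read as particular to the members.

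The 5 subunits of the exchange factor eIF2B had a mean pairwise r of 0.65 over 39 tumours, which was 0.38 over 36 and 0.30 over 32. Their mean centred level was lowest in tumours 2 (-1.37), 8 (-0.75) and 1 (-0.70), and reached 0.42 in tumour 21. The 11 eIF3 subunits had a mean r of 0.34 over 39 tumours, 0.18 over 36 and 0.21 over 32. The 3 genes of eIF2 and its alternatives had one of 0.41, 0.19 and 0.20, and the pair of 4E-binding proteins one of 0.16, 0.26 and 0.35. The 4 eIF2 alpha kinases did not move together (mean r -0.06), nor did the 7 genes of eIF4A, 4B, 4H and 4G (0.026). These correlations share the arrays and the tissue of each tumour and are given as a description.

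Along the Myc level, 26 of the 45 members rose and 1 fell, where 18.7% of all genes rose and 17.2% fell (limma, Benjamini-Hochberg adjusted p under 0.05 over 18193 genes). The median slope was 0.10 log2 per SD of Myc for the members and 0.01 for all genes. Bright genes rose more often than all genes, and 43 members lie above the median level. Among the 9096 genes above that level, 3124 rose and 1976 fell, and of the 43 members 26 rose and 1 fell. The median slope there was 0.11 for the members and 0.04 for all such genes. Eif4e, which encodes the cap-binding protein, was lowest in tumours 2 (10.12), 1 (10.70) and 6 (11.22), had a median of 11.94 and reached 12.35 in tumour 24. Its slope was 0.35 ± 0.04 (SE; adjusted p = 1.3e-09), and its low tumours were among those with the least Myc. The probe sets of Eif4e disagreed (lowest r 0.117), and their mean rose by 0.24 ± 0.03 (adjusted p = 2.7e-07). Eif3b had a slope of 0.38 ± 0.04 (adjusted p = 1.5e-09) and Eif2b1 one of 0.37 ± 0.04 (adjusted p = 2.3e-09). Eif2b3, the gamma subunit of eIF2B, rose by 0.34 ± 0.04, and Eif2b5, the catalytic epsilon subunit, by 0.34 ± 0.04 (0.19 ± 0.03 when its probe sets were averaged). Eif2a, an alternative initiator tRNA carrier, rose by 0.27 ± 0.05, a call that rested on tumour 2: without it the slope was 0.09 ± 0.05 (adjusted p = 0.16, limma). Eif4e3 was the member that fell, with a slope of -0.65 ± 0.16 (adjusted p = 0.0010). For example, Eif4e3 stood at 9.82 in tumour 2 and 9.80 in tumour 8, which had the least Myc, and at 7.65 in tumour 10, which had the most. Low Myc did not always go with high Eif4e3: tumours 18 and 27 (Myc 10.72 and 11.12) had 7.53 and 7.69.

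By role, all 5 eIF2B subunits rose, with slopes from 0.20 to 0.37. Of the 11 eIF3 subunits 8 rose, and Eif3f, Eif3h and Eif3k did not pass, with slopes of -0.03, 0.06 and -0.02. Among the start site factors, Eif1ax and Eif5, the GTPase activator of eIF2, rose (0.26 and 0.11), and Eif1a, Eif1ad and Eif1b did not pass. Eif2a and Eif2s2 rose, and Eif2d did not pass. None of the 4 kinases passed, with slopes between -0.10 (Eif2ak2) and 0.14 (Eif2ak4, the amino acid sensor GCN2). Among eIF4A, 4B, 4H and 4G only Eif4a1, the main helicase, and Eif4h, its cofactor, rose (0.10 and 0.16), out of 7 genes. Of the cap-binding group Eif4e, Eif4e2 and Eif4enif1 rose. Eif4ebp2 rose (0.18), and Eif4ebp1 did not pass (0.08 ± 0.07). Eif5a, which helps ribosomes past difficult peptide bonds, the subunit-joining GTPase Eif5b and the 60S factor Eif6 rose (0.16, 0.10 and 0.16; Eif5b did not pass with the mean of its probe sets), while Eif5a2 had a slope of -0.42 ± 0.18 that did not pass (adjusted p = 0.067).

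**Figure D2:**
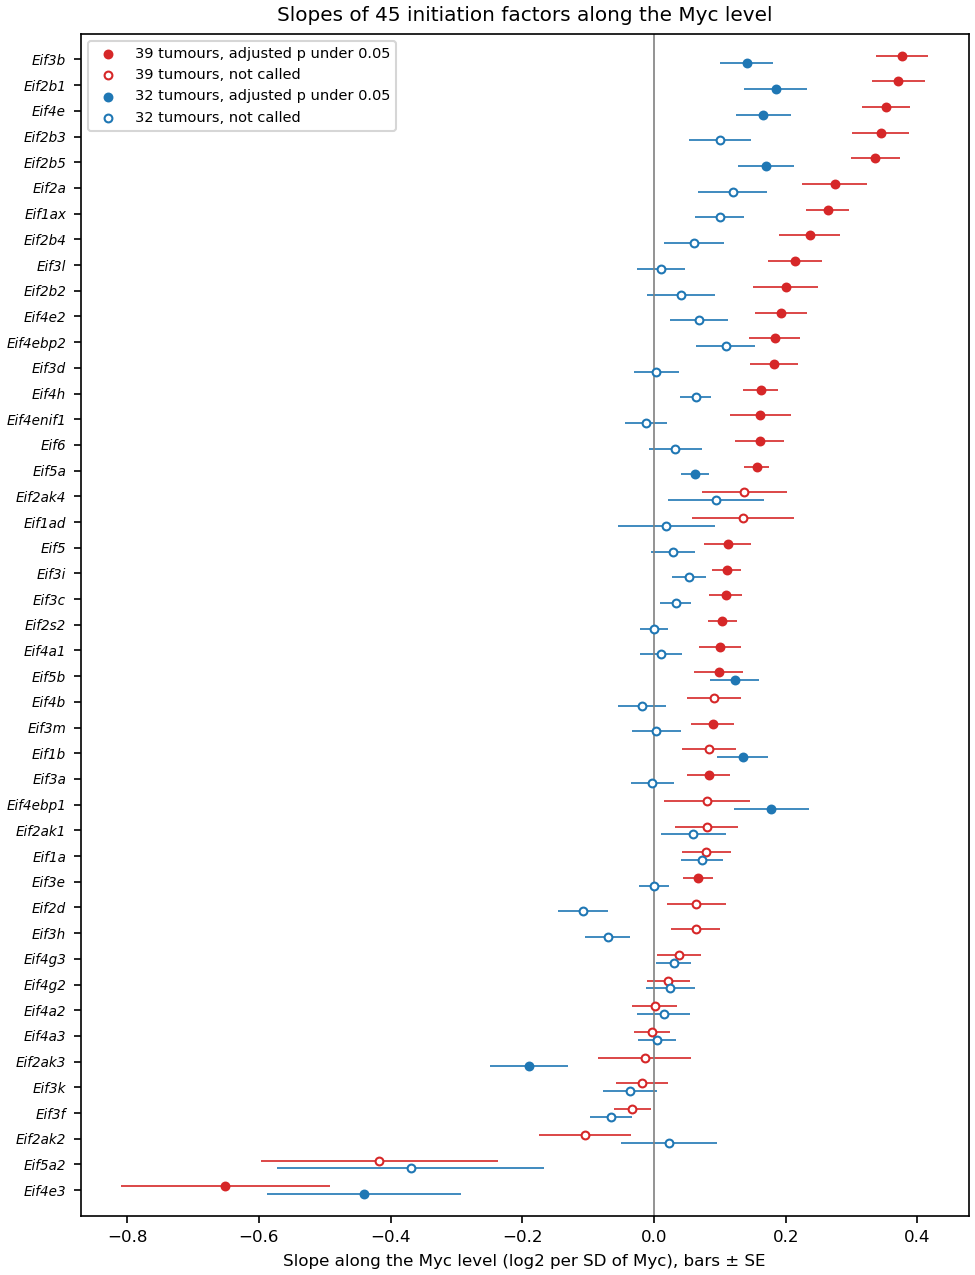
Slope of each of the 45 members along the Myc level (log2 per SD of Myc, bars ± SE), in all 39 tumours (red) and in 32 tumours (blue); filled points have an adjusted p under 0.05. Over 39 tumours 26 members rise and 1 falls, and over 32 tumours 8 rise and 2 fall.

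Many of these calls rested on a few tumours. In the alternative fits along Myc and the G2/M score, shares are those of all genes, and those of bright genes alone were not taken. How far the share of members there goes with their high level was not tested. Without tumour 2 alone, 17 members rose and 1 fell, against 15.9% and 16.8% of all genes. The calls lost there were those of Eif2a, Eif3a, Eif3d, Eif3e, Eif3i, Eif3l, Eif3m, Eif4a1 and Eif5b. Over 36 tumours 11 rose and 1 fell, against 9.62% and 9.31% of all genes, and over 32 tumours 8 rose and 2 fell, against 5.42% and 6.65%. The SD of Myc, the unit of the slope, was 0.77 over 39 tumours, 0.45 over 36 and 0.43 over 32. Eif2b1, Eif2b5, Eif3b, Eif4e, Eif5a and Eif5b rose and Eif4e3 fell over both 39 and 32 tumours. Of these, Eif5b was not called without tumour 2 (0.04 ± 0.04) or over 36 tumours (0.09 ± 0.04). Over 32 tumours Eif2b1 rose by 0.18 ± 0.05 (adjusted p = 0.0098), Eif4e by 0.17 ± 0.04 (adjusted p = 0.0078), Eif2b5 by 0.17 ± 0.04 and Eif3b by 0.14 ± 0.04, and Eif4e3 had a slope of -0.44 ± 0.15 (adjusted p = 0.046). Eif1b and Eif4ebp1 rose (0.13 and 0.18) and Eif2ak3 fell (-0.19 ± 0.06) over 32 tumours but not over 39. With T cell, macrophage, neutrophil and fibroblast scores as covariates, 13 members rose and 0 fell, against 5.97% and 3.79% of all genes, and 11 of the 13 were also called without them. Eif4e3 (-0.16 ± 0.22) and Eif5b (0.15 ± 0.06) were not called there. Centring each array on its median raised the counts to 38 higher and 1 lower, against 50.1% and 12.9% of all genes. The same centring moved the share of higher among called genes from 52.1% to 79.6% of all genes, and the median slope of all genes from 0.01 to 0.09, so that the members' median slope of 0.18 there lies against a shifted background.

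**Figure D3:**
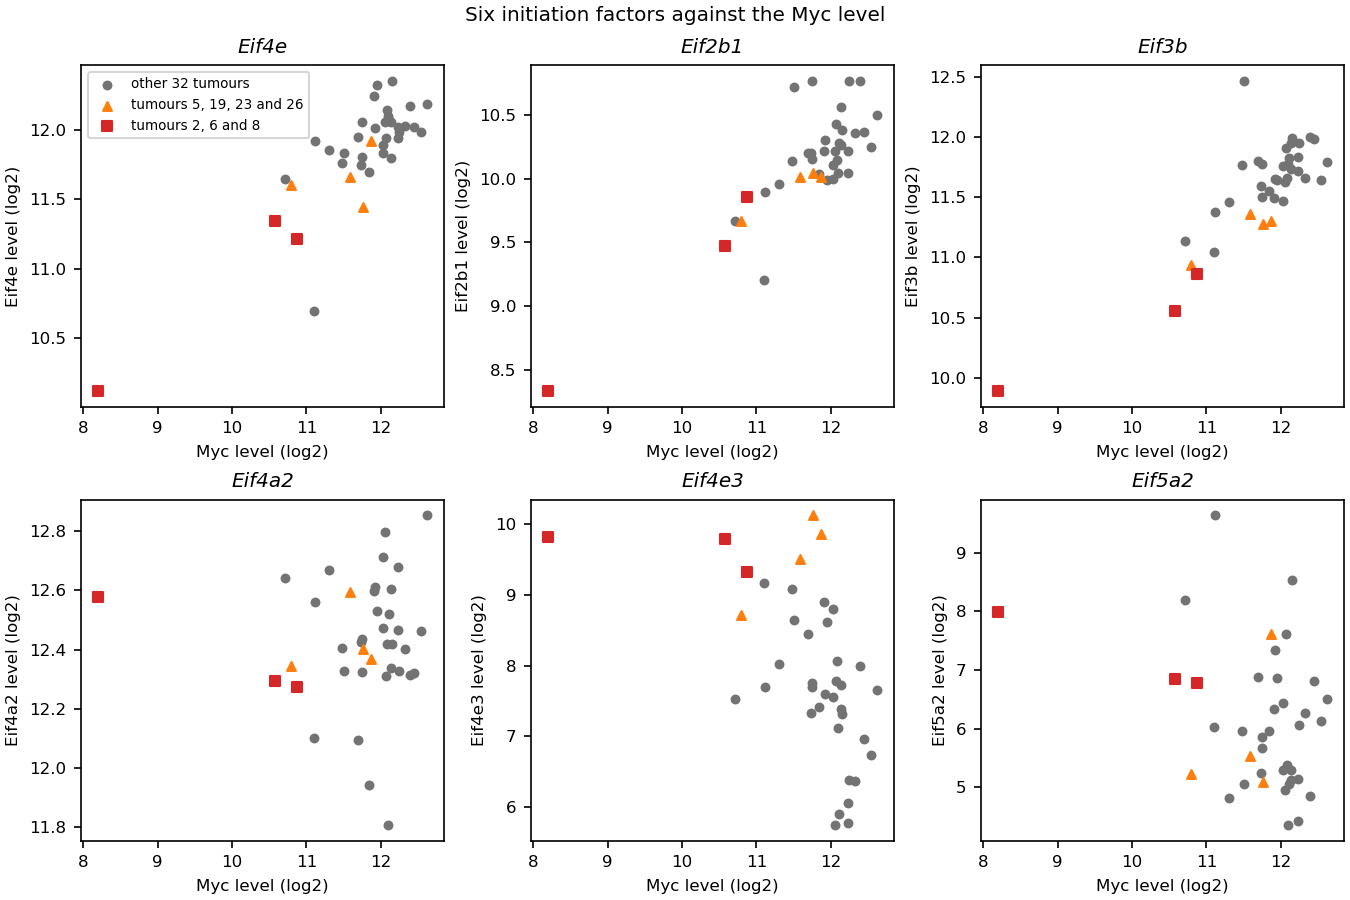
Levels of 6 members (log2, vertical axes) against the Myc level (log2, horizontal axes) in the 39 tumours, with tumours 2, 6 and 8 as red squares and 5, 19, 23 and 26 as orange triangles. Eif4e, Eif2b1 and Eif3b climb with Myc and are lowest in tumour 2, Eif4a2 shows no slope (0.00), and Eif4e3 falls.

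Most members that rose along Myc also rose along a proliferation score. The G2/M score is the mean centred level of 16 mitotic genes, with a low cluster of its own made of tumours 1, 2, 6 and 8 (-1.09 or less, against -0.54 or more in the others). Myc and this score correlated with r = 0.521 (rho = 0.459) over the other 35 tumours, and with r = 0.840 over all 39, which spans the separate clusters. Along it 26 members rose and 1 fell, against 19.8% and 20.3% of all genes (limma). Among the 9081 genes above the median level, 3410 rose and 2180 fell, and of the 43 members there 26 rose and 1 fell. Of the 26, 25 also rose along Myc. Eif2d rose along the G2/M score alone and Eif5b along Myc alone, and the difference between the fits was not tested. The overlap was not counted over all genes, and Myc and the score correlate, so it is not read as particular to the members. The largest slopes were those of Eif3b (0.38), Eif4e (0.36), Eif2b5 (0.35), Eif2b1 (0.34), Eif2b3 (0.32) and Eif2b4 (0.29), and Eif4e3 fell (-0.67). Within the 35 tumours of the larger cluster 10 members rose and 1 fell, against 11.6% and 8.94% of all genes. There Eif2b2 rose by 0.17 ± 0.04, Eif2b5 by 0.14 ± 0.03 and Eif6 by 0.12 ± 0.03. Over 32 tumours 12 rose and 0 fell, against 13.1% and 8.4%; over 36 they were 14 and 1, against 15.5% and 10.4%. With other-cell scores as covariates 18 rose and 0 fell, against 8.47% and 6.3%, and without tumour 2 22 rose and 2 fell, against 18.5% and 22.0%. With the G2/M score as a covariate in the Myc fit, 2 members rose, Eif1a (0.22 ± 0.06) and Eif2b1 (0.29 ± 0.07), and Eif2ak3 fell (-0.38 ± 0.11), against 1.89% and 2.01% of all genes. The standard errors widened in that fit, and slopes of members that lost the call included 0.24 ± 0.08 for Eif2b3 (adjusted p = 0.070, limma) and 0.23 ± 0.09 for Eif2a, so a lost call there does not mean a slope of 0. Array centring gave 38 higher and 1 lower along the G2/M score, against 47.9% and 13.7% of all genes, and moved the share of higher among all called genes from 49.4% to 77.7%.

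Genes that work beside the initiation factors are given for comparison. They were not set against genes of like level. Of 13 elongation and termination factors 7 rose and 1 fell along Myc over 39 tumours, with a median slope of 0.21, where 18.7% of all genes rose and 17.2% fell. Abce1, which recycles ribosomes, rose by 0.33, the release factor gene Gspt1 by 0.32 and Eefsec, the selenocysteine elongation factor, by 0.30. Gspt2, the relative of Gspt1, fell by 0.45. Of 17 accessory factors 8 rose and 1 fell, among them the poly(A)-binding protein gene Pabpc4 (0.34), the reinitiation factor Denr (0.26) and the hypusine enzyme Dohh (0.26), while Ppp1r15a, a phosphatase subunit that reverses eIF2 alpha phosphorylation, fell by 0.11. Of 15 mTORC1 and MNK genes 6 rose, led by Mtor (0.37), and 3 fell: Sesn2 (-0.38), an mTORC1 inhibitor, Rragc (-0.16) and the eIF4E kinase gene Mknk1 (-0.16). Over 32 tumours the counts higher and lower were 3 and 0, 0 and 0, and 2 and 1 for these lists in the same order, against 5.42% and 6.65% of all genes.

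The promoters of the members were searched for the E-box CACGTG, the sequence that Myc and its partner Max bind, in the window from 250 bases before to 50 after the start of the gene in RefSeq (GRCm38.p6). Promoters were given for 36 of the 45 members. The motif, which reads the same on both strands, was in 9 of them (25.0%): Eif1b, Eif3a, Eif3f, Eif3k, Eif4a1, Eif4e, Eif4h, Eif5a and Eif5a2. It was in 8.09% of all genes with a promoter, in 12.7% of those analysed above the median level and in 12.2% of those that rose along Myc. Of the 9 carriers 5 rose along Myc, and of the 27 members without it 17 rose. The stretches below, written 5′ to 3′ on the strand of the gene with the E-box in capitals, end at or before the start of the gene. The first group shows carriers that rose, with a pair of E-boxes in Eif4e.
Eif4e, chr3:138527018-138527267, plus strand: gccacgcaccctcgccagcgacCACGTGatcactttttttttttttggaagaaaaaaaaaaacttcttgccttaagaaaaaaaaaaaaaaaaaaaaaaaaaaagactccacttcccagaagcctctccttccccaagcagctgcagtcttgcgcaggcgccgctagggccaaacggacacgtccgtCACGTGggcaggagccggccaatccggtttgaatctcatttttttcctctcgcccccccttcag
Eif5a, chr11:69921387-69921506, minus strand: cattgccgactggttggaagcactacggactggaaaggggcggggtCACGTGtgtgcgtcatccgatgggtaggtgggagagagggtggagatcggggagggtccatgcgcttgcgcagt
Eif4h, chr5:134639450-134639529, minus strand: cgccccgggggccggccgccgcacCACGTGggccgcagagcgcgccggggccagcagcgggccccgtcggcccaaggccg
Eif5a2 also holds a pair of E-boxes, and its slope along Myc did not pass:
Eif5a2, chr3:28781117-28781196, plus strand: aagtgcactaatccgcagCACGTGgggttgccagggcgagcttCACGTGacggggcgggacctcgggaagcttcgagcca
Eif2b1 and Eif3b had the steepest slopes beside Eif4e, and neither holds the motif in the window searched; the 120 bases before their starts are shown:
Eif2b1, chr5:124579132-124579251, minus strand: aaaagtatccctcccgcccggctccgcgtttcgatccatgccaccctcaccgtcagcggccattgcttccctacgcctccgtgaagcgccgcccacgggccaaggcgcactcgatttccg
Eif3b, chr5:140419185-140419304, plus strand: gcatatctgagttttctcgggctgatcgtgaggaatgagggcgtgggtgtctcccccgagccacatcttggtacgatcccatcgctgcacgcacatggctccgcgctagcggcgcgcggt

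The E-box thus stood in the window of members that rose and of members that did not, and 17 members rose without it. In Eif3a it lay after the start of the gene. A match is a description of letters in this window and not a binding site. The cyclic AMP and Atf motifs TGACGTCA and TTGCATCA, on either strand, were in the promoters of 0 of these 36 members, against 2.03% and 1.03% of all genes with a promoter.

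The cap-binding pair Eif4e and Eif4e3 ran in opposite directions. Their correlation was r = -0.526 and rho = -0.491 (permutation, adjusted p = 0.0008 and 0.0086 over 10 relations), and r = -0.481 without tumours 1 and 2, the farthest in Eif4e. Without tumours 2, 6 and 8 it was -0.397 (adjusted p = 0.050), and over 32 tumours -0.291 (adjusted p = 0.22). Eif4e3 also correlated with the macrophage score (r = 0.521, adjusted p = 0.0068 over 24 relations chosen after the data were seen; rho = 0.401, adjusted p = 0.093), and over 32 tumours this was 0.322 (adjusted p = 0.26). Tumours 2, 6 and 8, with macrophage scores of 1.45 to 2.19, had Eif4e3 levels of 9.82, 9.33 and 9.80, and tumours 19, 5 and 26 had 10.13, 9.86 and 9.51. The 6 highest levels were thus those of tumour 2 and of 5 of the 6 tumours of the low pan B cell cluster, the exception there being tumour 23 (8.72). The part of cell type in the level of Eif4e3 was not tested.

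Both 4E-binding proteins were set against Eif4e. Eif4ebp2 ran from 9.94 in tumour 2 to 11.13 in tumour 37 with a median of 10.67, and correlated with Eif4e (r = 0.468, adjusted p = 0.006; rho = 0.383, adjusted p = 0.055). Without tumour 2 this was 0.310 (adjusted p = 0.13), and over 32 tumours 0.111. Eif4ebp1, a known Atf4 target gene, ran from 9.61 in tumour 32 to 11.61 in tumour 6 with a median of 10.50. It correlated with Eif4e by 0.092 over 39 tumours and by -0.324 without tumours 1 and 2, with Eif4ebp2 by 0.163 (adjusted p = 0.36), and with the score of 20 Atf4 targets by 0.194 (adjusted p = 0.29; r = 0.127 without tumours 6 and 32). Among the relations added after the data were seen, Eif4ebp1 was lower where the mature B cell score was higher (r = -0.557, adjusted p = 0.0058; rho = -0.480, adjusted p = 0.051) and where the T cell score was higher (r = -0.518, adjusted p = 0.0068; rho = -0.410, adjusted p = 0.093). Over 32 tumours these were -0.308 and -0.411, and neither passed (adjusted p = 0.26 and 0.20).

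Other partners gave the following relations. Eif4a1 and Eif4a2, the paired helicases, correlated with r = 0.315 (adjusted p = 0.091) over 39 tumours and with r = 0.574 without tumours 2 and 14, the farthest in Eif4a1. Without tumour 2 alone r was 0.518 (adjusted p = 0.0050), and over 32 tumours 0.560 (adjusted p = 0.0064; rho = 0.459, adjusted p = 0.044). Eif4a1 ran from 12.55 in tumour 2 to 13.70 in tumour 10 with a median of 13.46, and Eif4a2 from 11.81 in tumour 15 to 12.85 in tumour 10 with a median of 12.42. Eif4a2 was 12.58 in tumour 2, above its median, where Eif4a1 was at its lowest. Eif5a correlated with Dhps, the enzyme that starts its hypusine modification (r = 0.457, adjusted p = 0.006; rho = 0.367, adjusted p = 0.055), but without tumour 2 this was 0.287 (adjusted p = 0.13). Eif5a ran from 13.17 in tumour 2 to 14.19 in tumour 10 with a median of 13.95, and its correlation with Eif5a2 was -0.241 (adjusted p = 0.20). The interferon-induced kinase gene Eif2ak2 correlated with the interferon response score of 10 genes (r = 0.466, adjusted p = 0.006), but its rho was 0.240 (adjusted p = 0.23), and without tumour 2 r was 0.298 (adjusted p = 0.13). Eif3e and Eif3h, subunits of one complex, gave the strongest relation of the 10 (r = 0.714, rho = 0.661, adjusted p = 0.0001 for both, 1e-05 being the smallest unadjusted p the draws can give), with 0.781 without tumours 8 and 9 and 0.716 over 32 tumours. Averaging every probe set of each gene gave 0.280 (adjusted p = 0.12), and the probe sets of Eif3e disagreed (lowest r 0.191). Eif3e and Eif3h also both lie on chromosome 15 and correlated with the mean level of other genes there (r = 0.726 and 0.620). A shared complex and a shared chromosome cannot be told apart here.

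**Figure D4:**
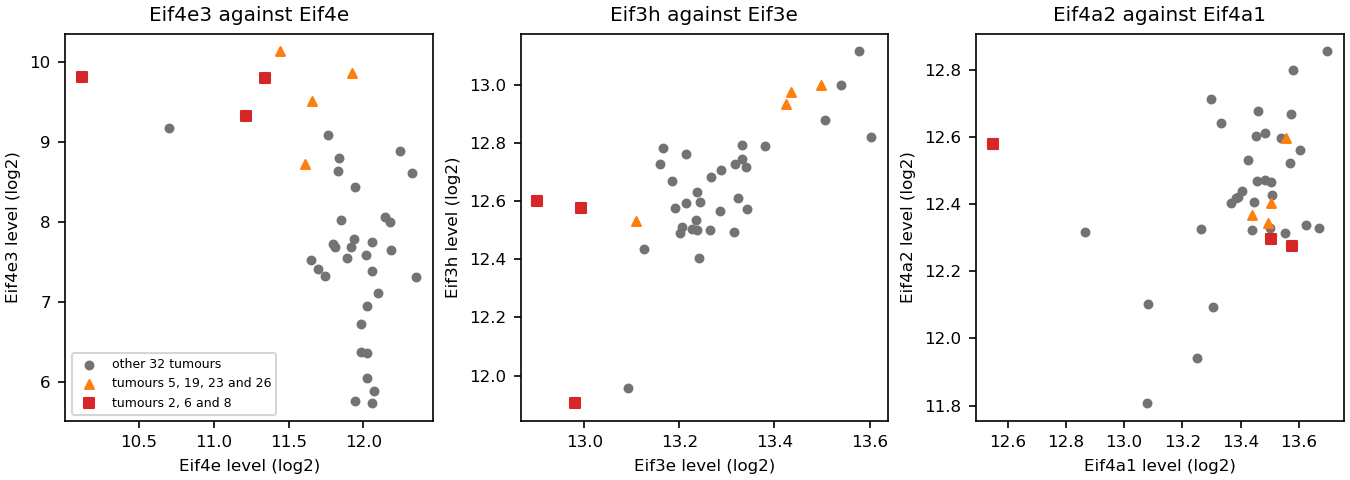
Levels (log2 on both axes) of Eif4e3 against Eif4e, Eif3h against Eif3e and Eif4a2 against Eif4a1 in the 39 tumours, with tumours 2, 6 and 8 as red squares and 5, 19, 23 and 26 as orange triangles. The pairs have r = -0.526, 0.714 and 0.315, and tumour 2 lies off the trend of the helicase pair.

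Position in the genome accompanied the levels of several members. Eif3d, Eif3e, Eif3h, Eif3l and Eif4b lie on chromosome 15, as does Myc itself. A chromosome 15 score was the mean centred level of 349 other genes of that chromosome above the median level, without the members and Myc. It fell into separate clusters, with 10 tumours (5, 9, 11, 12, 14, 19, 21, 22, 26 and 32) between 0.14 and 0.38 and the other 29 at 0.06 or less, down to -0.21. Along it 6 members rose and 0 fell, against 1.18% and 0.521% of the 17845 genes outside the score (limma). Those leave out the 349 genes of the score. Fitted in the same way along the score without itself, 34.1% of the 349 rose and 0 fell, which is the share the chromosome 15 members are to be read against. All 5 members on the chromosome rose: Eif4b, an eIF4A cofactor, by 0.20 ± 0.03 per SD (adjusted p = 0.00047), Eif3e by 0.11 ± 0.02 (adjusted p = 0.00069), Eif3d by 0.19 ± 0.03 (adjusted p = 0.0015), Eif3h by 0.15 ± 0.03 (adjusted p = 0.0056) and Eif3l by 0.20 ± 0.04 (adjusted p = 0.0077). The sixth was the heme-regulated kinase gene Eif2ak1 on chromosome 5 (0.16 ± 0.04, adjusted p = 0.041).

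The 10 tumours of the high cluster held 9 of the 10 highest levels of Eif3d, Eif3h, Eif3l and Eif4b and 8 of those of Eif3e, but 1 of those of Myc. This was not counted for other genes, so it is not read as particular to these members or their chromosome. Eif2ak1, on chromosome 5, also had its highest levels in tumours of that cluster, 14 (8.74), 19 (8.74) and 5 (8.62). Eif3h ran from 11.90 in tumour 2 to 13.11 in tumour 14 with a median of 12.61, and Eif4b from 11.15 in tumour 2 to 12.58 in tumour 19 with a median of 11.97. Within the 29 other tumours none of the 17845 genes tested passed (limma; 0 members, 5 of them at an unadjusted p under 0.05), so the count there says nothing of the members. The slopes there, per SD within those tumours, were 0.11 ± 0.04 for Eif3d, 0.05 ± 0.02 for Eif3e, 0.08 ± 0.06 for Eif3l, 0.01 ± 0.04 for Eif3h and 0.01 ± 0.04 for Eif4b. Over 36 tumours the same 6 rose and Eif4e3, on chromosome 6, joined them (0.75 ± 0.14, adjusted p = 0.0016, limma), with 0 falling. Of the 17845 genes outside the score, 2.56% rose and 1.08% fell there. Over 32 tumours only Eif3d (0.14 ± 0.02) and Eif4b (0.15 ± 0.03) passed, against 0.0616%. With other-cell scores as covariates 10 members rose and 0 fell, against 2.86% and 2.48%, and with arrays centred 24 rose and 0 fell, against 15.2% and 6.76%. Without tumour 2, 7 rose and 0 fell, against 1.74% and 0.975%. The shares in all these alternative fits leave out the chromosome 15 genes that make up the score. How many of those genes rose was not taken in these fits, so the chromosome 15 members cannot be read against their own chromosome there. With the mean of all probe sets Eif3d, Eif3e and Eif4b rose, where 177 of the 17845 genes outside the score rose. DNA copy number was not analysed here.

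**Figure D5:**
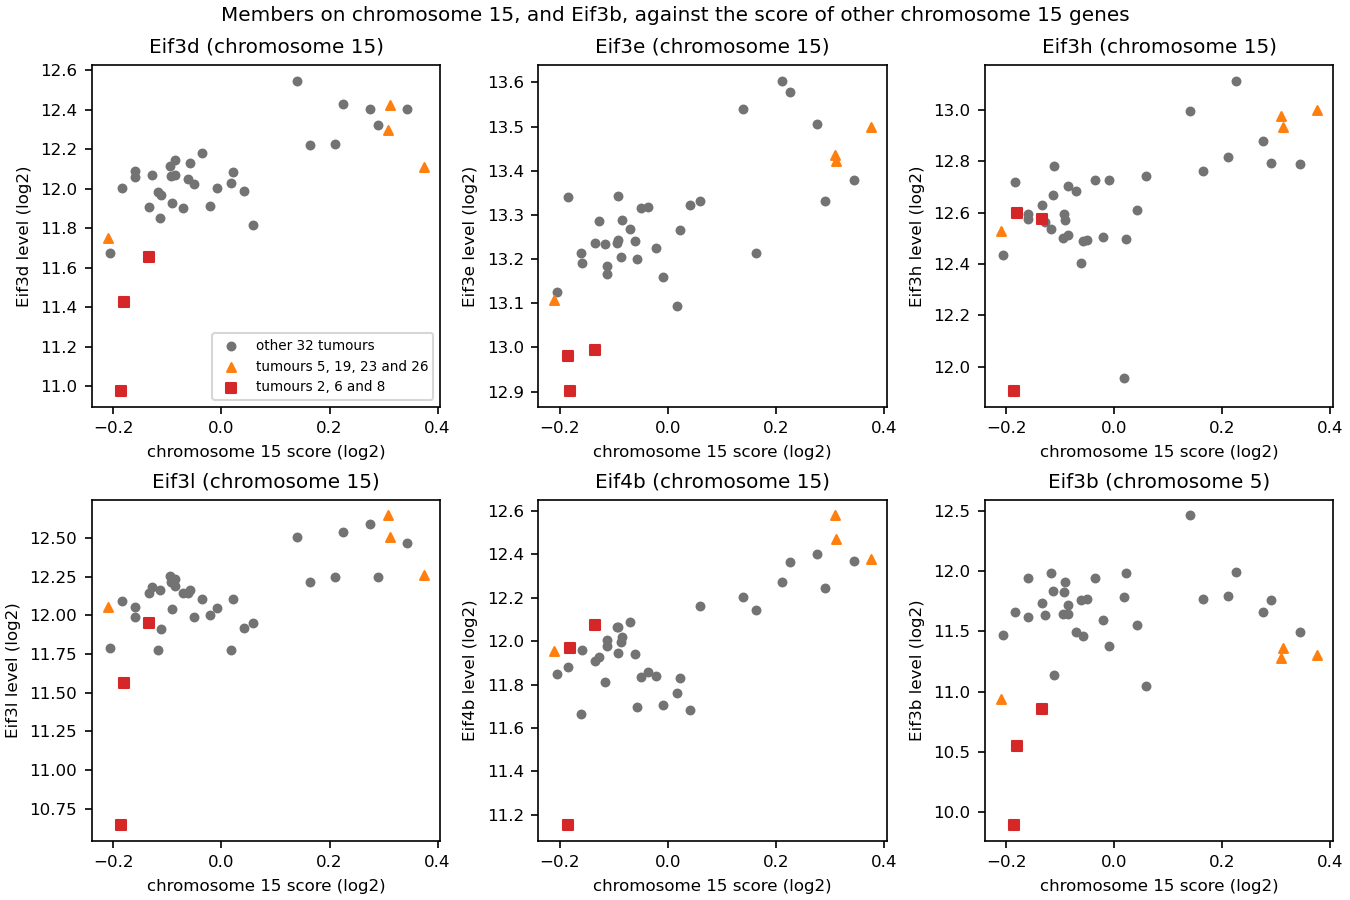
Levels (log2, vertical axes) of the 5 members on chromosome 15, and of Eif3b on chromosome 5 beside them, against the chromosome 15 score (log2, horizontal axes) in the 39 tumours; markers are as in the plot of members against Myc. The 10 tumours with a score of 0.14 or more hold 8 or 9 of the 10 highest levels of each chromosome 15 member. Highest levels were not counted over other genes. Eif3b has a slope of 0.09 that did not pass.

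Each member was also set against the scores of all chromosomes. Among the 20 chromosome scores made in the same way, that of its own chromosome correlated best with the member for 22 of the 45 members over 39 tumours and for 30 over 32 tumours. Of the 9032 genes that made up the scores, each left out of its own, the same held for 29.9% over 39 tumours and 36.8% over 32. Eif2b1 and Eif2b4 of eIF2B, Eif3b, Eif2ak1 and Eif4h are all on chromosome 5 and had an r with the other genes of that chromosome of 0.670, 0.668, 0.655, 0.548 and 0.559. Eif3a, on chromosome 19, went from 0.474 over 39 tumours to 0.752 over 32. Eif2ak2, Eif2ak4, Eif3f and Eif4g2 had an r of 0.13 or less with their own chromosome. For scale, a chromosome 15 gene of the score had a median r of 0.410 with the others, with quartiles of 0.207 and 0.567. These are descriptions over shared arrays.

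Few members were called along the score of Atf4 targets, which respond when eIF2 alpha is phosphorylated. The share that fell over 39 tumours (4.44%) was near that of all genes. Over 39 tumours 0 members rose and 2 fell, Eif2b2, the beta subunit of eIF2B (-0.19 ± 0.05, adjusted p = 0.018), and Eif5a (-0.09 ± 0.03, adjusted p = 0.046), against 4.45% and 4.86% of all genes (limma; 9 members at an unadjusted p under 0.05). Eif2b2 ran from 9.50 in tumour 8 to 10.83 in tumour 38 with a median of 10.37. Without tumour 2, 8 fell and 0 rose, against 8.42% and 7.13% of all genes. The same 2 fell over 36 tumours (0 rose, against 4.67% and 3.76%), and over 32 tumours only Eif5a fell (0 rose, against 2.73% and 2.82%). With other-cell scores as covariates 0 members were called in either direction, with 6 at an unadjusted p under 0.05, against 0.022% higher and 0.0055% lower of all genes. With arrays centred 0 were called, against 0.022% and 0.011%.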

How the data were processed

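RNA of 39 lymphomas was hybridised to 1 array each. The authors deposited log2 levels for each probe set, summarised with RMA (affy), per the submitters' processing notes; which arrays were normalized together, and with which version, is not stated in those notes. RMA gives the arrays nearly the same distribution, which hides a change in total RNA. No column was left unused.

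Of 45101 probe sets, 34958 named 1 gene in the platform annotation, 932 several, and 9211 were unlisted; 34754 matched a gene of GRCm38.p6. The members had 128 probe sets; of 35 members with several, 10 had a pair correlating below 0.2 (Eif2a, Eif2ak1, Eif3d, Eif3e, Eif4e, Eif4e2, Eif4ebp2, Eif4g2, Eif4h and Eif5b). The number of arrays limits the precision.

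Slopes were fitted over all genes with limma 3.58.1 (lmFit, eBayes with trend; R 4.3.3), each measure divided by its SD over the tumours used and its own genes left out, 2-sided, threshold adjusted p 0.05. Relations used 100000 permutations for both Pearson's r and Spearman's rho, 2-sided; 12 were planned and 10 computed. Clusters came from mclust 6.1.1 (2 components, BIC gain over 10, at least 3 tumours). The scripts were tested on simulated data.

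The members, lists and tests were chosen with earlier results of these data known. Named members are the 6 with the largest and 3 with the smallest SD, those with a far tumour, those of planned relations, and the 6 largest slopes per fit, with 3 per companion list; others were named after their values were seen. The fits without tumour 2 alone and within larger clusters, and 24 further relations, were added after seeing the data, as were the shares over chromosome genes.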

Additional observations from a re-analysis of the deposited data

How the results depend on the processing

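Of 494 slopes of members called at first, refitted under an alternative, 323 kept direction and call, 151 lost the call and 20 changed sign. Slopes of members not called at first are not among the 494. The cause was not tested, and some fits had fewer tumours. The counts that moved by over 1.5 times were as follows. Without tumours 2, 6 and 8, 11 members rose along Myc and 14 along G2/M, and 2 relations passed. Without the 7 tumours 8 rose and 2 fell along Myc, 12 rose and 0 fell along G2/M, 1 fell along the Atf4 score, 2 rose along chromosome 15, and 2 relations passed. With other-cell scores as covariates 13 rose and 0 fell along Myc, 0 fell along G2/M and the Atf4 score, and 10 rose along chromosome 15. With the G2/M score as a covariate 2 rose along Myc. With arrays centred 0 fell along the Atf4 score and 24 rose along chromosome 15. With the mean of all probe sets 0 fell along the Atf4 score, where 614 of the 18174 genes tested fell. In that setting 3 rose along chromosome 15, where 177 of 17845 genes rose. With dim genes left out 4 of 43 members fell along the Atf4 score, and so did 1071 of the 9081 genes tested there. Without tumour 2 alone 17 rose along Myc, 2 fell along G2/M, 8 fell along the Atf4 score, and 3 relations passed. Within the larger cluster 10 rose along G2/M and 0 along chromosome 15, where no gene at all was called.

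The slopes that changed sign all missed the threshold. Along Myc with the G2/M covariate they were Eif2b2 (-0.0966), Eif2b4 (-0.0144), Eif2s2 (-0.0112), Eif3a (-0.0611), Eif3c (-0.04), Eif3m (-0.00536), Eif4enif1 (-0.0548), Eif5 (-0.00759) and Eif6 (-0.051). Over 32 tumours they were Eif2s2 (-5.81e-05), Eif3a (-0.00245), Eif3e (-0.000145) and Eif4enif1 (-0.012), and without tumour 2 Eif4a1 (-0.0108). Along G2/M they were Eif2d (-0.0423 over 32 tumours, -0.0155 within the cluster), Eif3e (-0.00377 over 36, -0.00846 over 32) and Eif3i (-0.00785 within the cluster). Along chromosome 15 Eif2ak1 stood at -0.0408 within the cluster. The relation of Eif4e with Eif4ebp1 was -0.122 without tumour 2. Of 50 relations under alternatives, 32 kept their result, called or not called, 13 lost the call and 4 gained it. Only 5 of the 10 relations were called at first, so the 32 include pairs that were never called and do not measure how many calls held.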
